A study of Mus musculus with 4 samples.

Results

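A set of 9 entries of the C2C12 expression tables, out of 24850 with a gene symbol in the total RNA-seq and 24992 in the polyA RNA-seq, belonged to the histone variant genes whose mRNAs are made outside S phase as well as within it. The list was made with earlier results of these data known, and its members were found by symbol: H2afz, H2afv, H2afx, H2afy, H2afy2, H2afj, H3f3a, H3f3b and H1f0. Each was listed once in every table, with a usable estimate in all 4 libraries, so that no member was lost to a filter. C2C12, a myoblast line from mouse muscle, forms multinucleate myotubes when growth medium is exchanged for differentiation medium (DM). RNA depleted of rRNA was sequenced from 1 culture of myoblasts (MB, DM -24 h) and 1 culture of myotubes (MT, DM 72 h). PolyA RNA was sequenced from MT at DM 48 h after transfection with siRNA against the RNA-binding protein hnRNPL (si-hnRNPL, 1 library) or with control siRNA (si-NC, 1 library). All 4 libraries came from the same line with no engineered allele, and the cell type field of every sample reads myoblast, also for the cultures titled MT. The hours are those of the labels, and the study's supplement gives another hour for MT in an RNA-seq comparison.

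Most core histones come from replication-dependent genes, which are transcribed in S phase and give mRNAs that end in a stem-loop instead of a polyA tail. The variants come from single genes that usually carry introns and give polyadenylated mRNAs, and their proteins are put into chromatin at any time of the cycle by chaperones of their own. In cells that have left the cell cycle, these genes are known as a source of new histone protein, which was not measured here.

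The genes were spread over 8 chromosomes of mm9, the build of the deposited tables. The paired genes for H3.3, which replaces H3 in transcribed chromatin and at chromosome ends, were H3f3a at chr1:182732699-182743734 on the minus strand and H3f3b at chr11:115883275-115885818 on the minus strand. H2A.Z, which marks the nucleosomes beside transcription start sites, came from H2afz at chr3:137527451-137529886 on the plus strand and H2afv at chr11:6327229-6344446 on the minus strand. H2AX, the H2A form phosphorylated around DNA breaks, came from the single-exon gene H2afx at chr9:44142798-44144156 on the plus strand. MacroH2A, which carries a large extra domain and is known for silent chromatin, came from H2afy at chr13:56174983-56236911 and H2afy2 at chr10:61201395-61246612, both on the minus strand. The single-exon H2afj at chr6:136756769-136758595 and the linker histone gene H1f0 at chr15:78858642-78860930 were both on the plus strand. H1f0 encodes H1.0, the linker histone known from cells that have stopped dividing.

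Both H3.3 genes encode the same protein with different codons, so that the mRNAs could be told apart by reads from the coding sequence as well as from the ends. Over the aligned coding sequence of the mm9 annotation, 316 of 411 positions were identical (76.9%). The first 60 coding bases are shown, with the 13 positions that differ between the genes in capitals.
H3f3a: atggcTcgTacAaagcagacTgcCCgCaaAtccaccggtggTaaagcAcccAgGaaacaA
H3f3b: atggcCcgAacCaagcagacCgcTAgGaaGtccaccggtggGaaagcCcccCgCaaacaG
The coding sequences of H2afz and H2afv shared 306 of 390 aligned positions (78.5%), those of H2afy and H2afy2 786 of 1127 (69.7%), and those of H2afx and H2afj 348 of 433 (80.4%). H3f3a, H3f3b and H2afz also have processed copies elsewhere in the genome, and how reads that match several places were shared out is not given in the sources used here.

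H2afx is known for mRNA of both kinds, with a stem-loop or with a polyA tail, and the letters of the histone stem-loop were searched for after the stop codon of every coding transcript as GGNNCTTTNNAGNNCC on the transcript strand. Among the members with a coding transcript in the annotation, 1 of 8 had a match, H2afx, against 43 of 67 replication-dependent histone genes (64.2%) and 41 of 22536 other coding genes (0.182%). The match in H2afx lay at chr9:44143323-44143338 of mm9, 47 bases after the stop codon, and its annotated transcript went on for 816 bases beyond it. It is shown beside the highest replication-dependent genes of MB that had a match and the linker histone gene Hist1h1c, with the stem-loop in capitals.
H2afx: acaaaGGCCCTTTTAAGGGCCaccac
Hist1h4d: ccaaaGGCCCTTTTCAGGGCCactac
Hist1h1d: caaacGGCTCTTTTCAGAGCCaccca
Hist1h1c: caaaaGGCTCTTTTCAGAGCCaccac
A match is a description of the letters, and no match says only that these letters were not in the annotated stretch. Of the replication-dependent genes, 42 had at least 60 annotated bases after the stop codon, and 35 of these 42 had a match (83.3%).

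The members' promoters were read for short motifs on both strands, from 250 bases before to 50 after the start in RefSeq's GRCm38.p6. It had an entry for 8 of the 9 genes, all but H2afx, whose promoter was not read. CCAAT, the letters bound by the factor NF-Y, were in 6 of the 8 promoters, against 37.4% of 32851 promoters of the same length. H2afv and H3f3b held 4 copies each, H2afz and H2afj 3, and H3f3a and H2afy2 1. TATAAA was in H3f3b alone (13.6% of all promoters), CACGTG in H2afz alone (7.15%) and TTTGAA in H2afv alone (17.9%), while TTTCCCGC and TTTGGCGC, written here for E2F factors, were in none of the 8 and in 1.56% of all promoters. The promoters of H2afz, on the plus strand at chr3:137864237-137864536, and of H3f3b, on the minus strand at chr11:116024455-116024754 (both GRCm38.p6), are shown because these genes lost the most FPKM from MB to MT. CCAAT, or ATTGG for the other strand, is in capitals.
H2afz: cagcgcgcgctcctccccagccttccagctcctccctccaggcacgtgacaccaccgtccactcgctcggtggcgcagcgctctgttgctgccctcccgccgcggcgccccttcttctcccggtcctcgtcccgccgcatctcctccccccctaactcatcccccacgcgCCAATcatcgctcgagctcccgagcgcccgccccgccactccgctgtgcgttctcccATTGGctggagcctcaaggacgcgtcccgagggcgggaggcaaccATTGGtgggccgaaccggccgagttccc
H3f3b: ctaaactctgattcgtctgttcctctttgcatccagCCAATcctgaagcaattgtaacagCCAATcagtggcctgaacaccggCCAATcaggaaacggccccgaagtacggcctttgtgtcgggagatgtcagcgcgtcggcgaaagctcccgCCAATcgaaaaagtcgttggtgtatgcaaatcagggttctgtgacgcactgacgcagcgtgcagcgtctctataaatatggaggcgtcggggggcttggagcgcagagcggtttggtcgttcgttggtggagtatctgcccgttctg

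The unit was FPKM, fragments divided by transcript length and by the size of the library, so that levels could be compared between genes. Every value comes from 1 library, and the range after it is the deposited 95% interval, which covers counting and assignment of fragments within that library and not the spread between cultures. A change was taken as log2((FPKM + 1) ratio), a scale that understates changes of low genes, and it was called up or down at 0.58 or more in either direction. There was 1 library per condition, so differences were not tested and are described by these intervals. In MT all 5 myotube markers were higher than in MB (summed FPKM 13.6 in MB and 1212 in MT) and all 6 proliferation markers lower (731 and 155). The 4 myogenic lineage markers were at 13.6 FPKM or more in every library. Of 10 markers of leukocytes, endothelium, epithelium, fat and glia, 9 or 10 were below 0.5 FPKM in each library, 2 to 5 were at 0, and their summed level was 1.34 in MB, 1.29 in MT, 1.20 in si-NC and 0.703 in si-hnRNPL.

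The variant genes spanned levels from 4.08 to 545 FPKM, and the order of the genes in MB differed from that in the MT libraries. In MB the order from the highest was H2afz, H3f3a, H3f3b, H2afx, H2afy, H1f0, H2afv, H2afy2 and H2afj, and only H2afy and H1f0 were neighbours with overlapping intervals. In MT it was H3f3a, H3f3b, H2afz, H1f0, H2afv, H2afy, H2afx, H2afj and H2afy2, with no overlap between neighbours. Both polyA libraries had the order of MT, and intervals overlapped for H2afj and H2afy2 in si-NC and for H2afy and H2afx in si-hnRNPL. The FPKM of the 9 genes summed to 1039.5 in MB, 667 in MT, 1317 in si-NC and 1394 in si-hnRNPL. H2afz made up 35.6% of that sum in MB and 17.8% in MT, and H3f3a 22.2% in MB and 42.0% in MT.

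**Figure D1:**
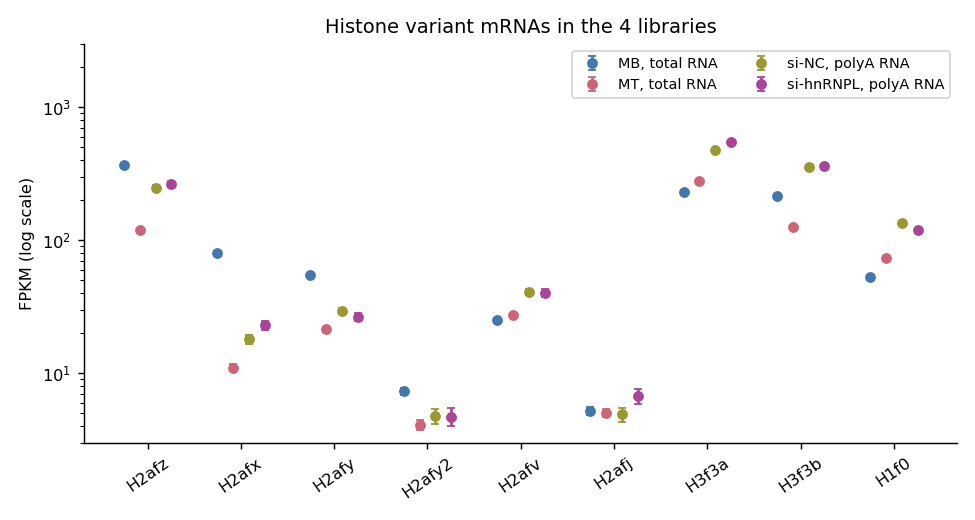
FPKM of the 9 variant genes on a log axis in the MB and MT total RNA libraries and the si-NC and si-hnRNPL polyA libraries (1 library each), with deposited 95% intervals as bars. H2afx went from 79.5 FPKM in MB to 11.0 in MT, H1f0 from 53.0 to 74.1, and H2afy2 and H2afj were the lowest 2 genes in every library.

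The comparison of MT with MB asked how these mRNAs differed between dividing and differentiated cells. In all, 5 members were lower in MT past the fold, H2afx, H2afz, H2afy, H3f3b and H2afy2, and 0 of 9 were higher. Among 11430 named genes with a mean FPKM of at least 1 over both libraries, 28.8% were down and 14.6% up. FPKM intervals of MB and MT did not overlap for 8 of 9 members, all but H2afj, and for 86.3% of those genes. The members' median change was -0.71 on the log2 scale, against -0.21 over those genes. Relative to that median of all genes, H2afx, H2afz and H2afy were still down, H2afy2 (-0.50) and H3f3b (-0.56) no longer passed the fold, and H1f0 was up (0.69), in a background of 21.1% up and 19.4% down. With FPKM rescaled to an equal total over named genes other than small RNA genes, 3 members were down and H3f3a (0.65) and H1f0 (0.85) were up, in a background of 27.4% up and 16.7% down. Changes also went with transcript length (Spearman's rho 0.15) and GC content (-0.12) across 10274 coding genes, which are not independent replicates. The median change was -0.42 in the decile of shortest transcripts and 0.005 in that of the longest. Members with a coding transcript lay in length deciles 1 to 5, whose medians were between -0.42 and -0.27. In these bulk libraries, fewer cells of a type and less RNA per cell cannot be told apart. The part of length, GC content or the lower proliferation markers of MT in any member's change was not tested.

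H2A.Z.1 from H2afz was the most abundant variant mRNA of MB and stood at 32.1% of its MB level in MT. H2afz had 370 FPKM in MB (366 to 375) and 119 in MT (116 to 121). It had 247 FPKM in the si-NC library (236 to 259) and 266 in si-hnRNPL (253 to 279), where its intervals were wider than in total RNA. The total RNA values were far apart, with a change of -1.63 (-1.66 to -1.60) and 5.04% of all genes lower in change, while the polyA values overlapped.

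H2A.Z.2 from H2afv, whose protein differs from H2A.Z.1 at a few residues, did not share that fall. H2afv had 25.1 FPKM in MB (24.2 to 26.0), 27.2 in MT (26.3 to 28.2), 40.9 in si-NC (38.6 to 43.3) and 40.1 in si-hnRNPL (37.4 to 42.8). Its change from MB to MT was 0.11 (0.04 to 0.18) and did not pass the fold. The level of H2afz over that of H2afv was therefore 14.8 in MB and 4.37 in MT. As a share of H2A.Z FPKM, H2afz made up 93.7% in MB (93.4 to 93.9) and 81.4% in MT (80.8 to 82.0), and it remained the larger part in each library. In the polyA libraries it made up 85.8% in si-NC (84.9 to 86.7) and 86.9% after knockdown (86.0 to 87.9), with overlapping intervals.

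H2AX had the largest fall of the 9 genes, and 0.639% of all genes had a lower change. H2afx stood at 79.5 FPKM in MB (77.7 to 81.3) and at 11.0 in MT (10.35 to 11.6), a change of -2.75 (-2.83 to -2.66) that left MT at 13.8% of MB. For comparison, 61 replication-dependent histone genes were found in both tables with a mean FPKM of at least 1. Their median change was -2.16, with 60 down and 0 up, beside 28.8% down and 14.6% up among all genes. In polyA RNA H2afx was still measured, at 18.0 FPKM in the si-NC library (16.6 to 19.4) and 22.9 in si-hnRNPL (21.0 to 24.9). The median replication-dependent histone gene was at 179 FPKM in MB and 39.0 in MT, but at 0.480 in si-NC and 0.728 in si-hnRNPL, where 3 and 4 of 69 genes reached 10 FPKM. Hist1h1c, whose stem-loop is printed above with that of H2afx, was one of them, at 424 FPKM in MB, 167 in MT, 33.5 in si-NC and 43.8 in si-hnRNPL. The total and polyA libraries also differed in transfection and, by the labels, in hours of differentiation, so that levels between them are given side by side only.

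Both macroH2A genes were lower in MT, H2afy by the larger factor. H2afy had 54.6 FPKM in MB (53.0 to 56.2), 21.4 in MT (20.6 to 22.2), 29.4 in si-NC (27.8 to 30.9) and 26.5 in si-hnRNPL (24.8 to 28.3). H2afy2 was much less abundant, at 7.33 FPKM in MB (6.88 to 7.78), 4.08 in MT (3.75 to 4.41), 4.76 in si-NC (4.15 to 5.36) and 4.71 in si-hnRNPL (3.98 to 5.45). The changes from MB to MT were -1.31 (-1.37 to -1.24) for H2afy and -0.71 (-0.84 to -0.59) for H2afy2. H2afy made up 88.2% of macroH2A FPKM in MB (87.5 to 88.9) and 84.0% in MT (82.8 to 85.2). That order turned when the fragments implied by the intervals replaced FPKM, with 81.8% in MB and 82.8% in MT.

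H2A.J, a variant close in sequence to replication-dependent H2A, was among the lowest members, and its intervals in MB and MT overlapped. H2afj had 5.20 FPKM in MB (4.82 to 5.59), 5.03 in MT (4.65 to 5.40), 4.90 in si-NC (4.30 to 5.50) and 6.74 in si-hnRNPL (5.86 to 7.62). Its change from MB to MT was -0.04 (-0.17 to 0.08) as deposited, 0.17 relative to the median of all genes and 0.30 after rescaling, so that its sign depended on the scale.

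The H3.3 genes, close in level in MB, moved apart in MT. H3f3a had 230.5 FPKM in MB (227 to 234) and 280.1 in MT (276 to 284), and H3f3b had 214 in MB (212 to 216) and 125 in MT (124 to 127). The change was 0.28 (0.25 to 0.31) for H3f3a, below the fold, and -0.77 (-0.79 to -0.74) for H3f3b. H3f3b made up 48.1% of H3.3 FPKM in MB (47.7 to 48.6) and 30.9% in MT (30.5 to 31.3), while the H3.3 sum was 444 and 405 FPKM. In polyA RNA H3f3a had 480.3 FPKM with control siRNA (472 to 489) and 545 after knockdown (535 to 556), and H3f3b had 357 (352 to 362) and 363 (357 to 369). The share of H3f3b in H3.3 was 42.6% in si-NC (42.1 to 43.2) and 39.9% in si-hnRNPL (39.3 to 40.6), intervals that did not overlap. When implied fragments replaced FPKM, H3f3b had the larger share in MB (65.0%), si-NC (61.3%) and si-hnRNPL (58.6%) and the smaller one in the MT total RNA library (47.2%).

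H1.0 had the highest change of the 9 genes from MB to MT. H1f0 stood at 53.0 FPKM in MB (51.9 to 54.1), 74.1 in MT (72.8 to 75.3), 135 in si-NC (132 to 138) and 119 in si-hnRNPL (116 to 123). Its change of 0.47 (0.44 to 0.51) did not pass the fold as deposited and passed it on both other scales given above, and MT stood at 140% of MB. Its part of the summed FPKM of the 9 genes was 5.10% in MB and 11.1% in MT. The annotation used here lists a pseudogene in place of H1f0, so that no coding sequence of it was read.

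**Figure D2:**
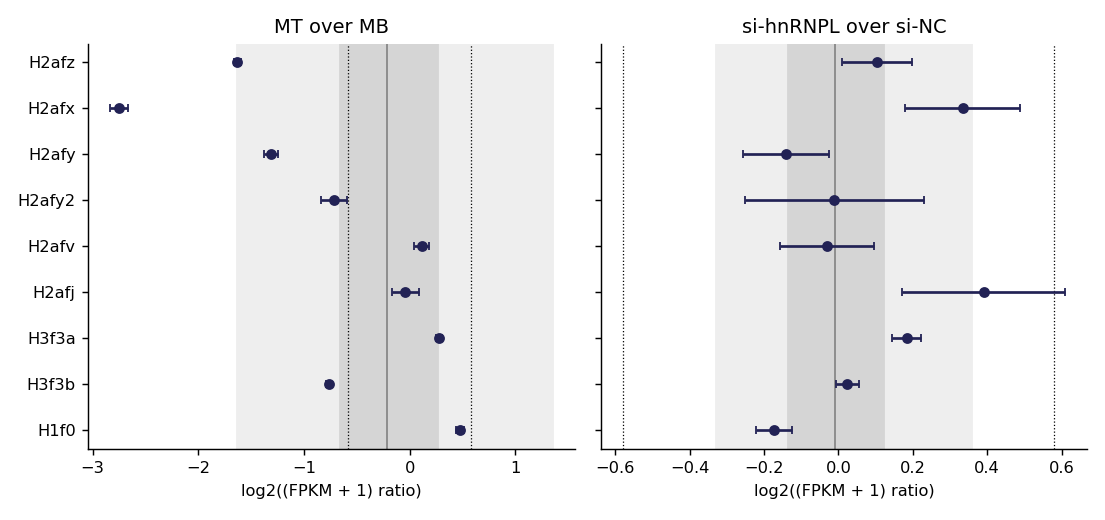
Change of the 9 variant genes on the log2((FPKM + 1) ratio) scale, MT over MB at left and si-hnRNPL over si-NC at right, with 95% intervals from the deposited FPKM intervals; grey bands hold the middle 50% and 90% of all named genes with a mean FPKM of at least 1, the grey line is their median and dotted lines mark 0.58 in either direction. The 5 genes H2afz, H2afx, H2afy, H2afy2 and H3f3b lay left of -0.58 in MT over MB, and none passed either dotted line in the knockdown.

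**Figure D3:**
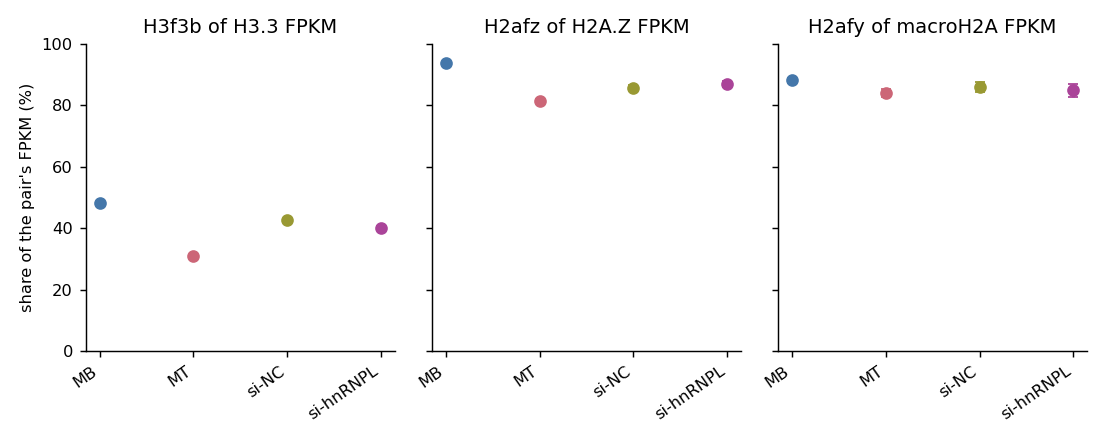
Share (%) of the paired genes' summed FPKM that came from H3f3b, H2afz and H2afy in each of the 4 libraries, with 95% intervals as bars. The shares of H3f3b and H2afz went from 48.1% and 93.7% in MB to 30.9% and 81.4% in MT, and the share of H2afy from 88.2% to 84.0%.

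Set against the replication-dependent genes of the same histone families, the variants made up a larger part of the histone FPKM of MT than of MB. The H3.3 genes gave 19.6% of H3 FPKM in MB and 50.5% in MT, beside 12 replication-dependent H3 genes that summed to 1824 FPKM in MB and 398 in MT. The 6 H2A variants gave 20.3% in MB and 30.4% in MT, beside 18 genes that summed to 2128 and 429 FPKM. These variants themselves summed to 542 FPKM in MB and 188 in MT, so their share was larger in MT although their sum was lower. H1f0 gave 2.41% and 12.6%, beside 6 genes that summed to 2151 and 513 FPKM. The H3.3 sum itself was 444 FPKM in MB and 405 in MT as deposited, and 1233 and 1457 after the rescaling given above, so that its direction depended on the scale. In polyA RNA the variants gave 99.6% of H3 FPKM in the control and 99.4% after knockdown. They gave 92.1% and 89.7% of H2A FPKM, and 78.7% and 71.7% of H1 FPKM. Selection for polyA leaves out mRNAs that end in a stem-loop, so these shares cannot be read as shares of histone mRNA in the cells. Many replication-dependent H3 and H2A genes are close in sequence, which was not measured here. The values of single genes are therefore uncertain, and the sums of these families less so.

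**Figure D4:**
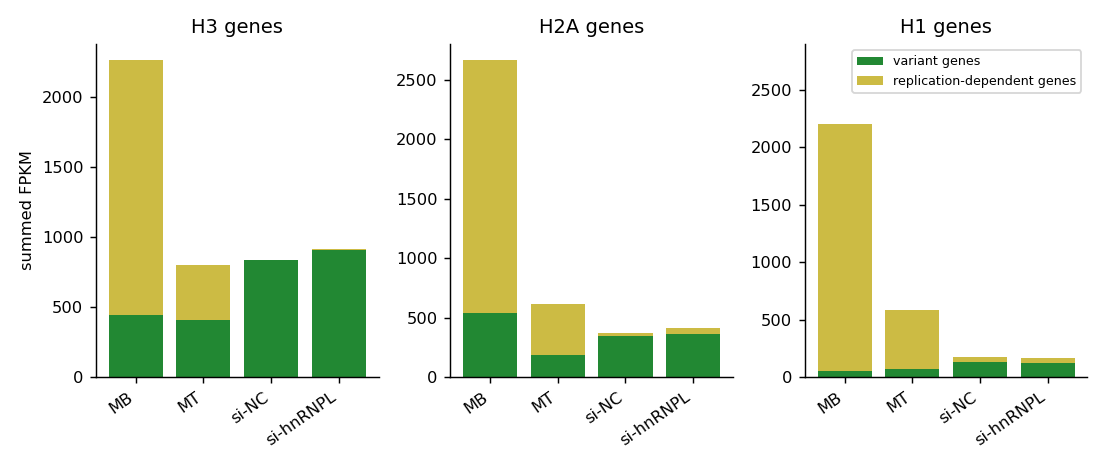
Summed FPKM of H3, H2A and H1 genes in each library, with the variant genes in green and the replication-dependent genes in yellow. The H3 variants summed to 444 FPKM in MB and 405 in MT beside 1824 and 398 FPKM of replication-dependent H3. In polyA RNA, where mRNAs that end in a stem-loop are left out, replication-dependent H3 was 3.08 FPKM in the control and 5.88 in the knockdown.

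Of 8 H3.3 chaperone genes, which carry H3.3 to chromatin, 3 were down in MT and 2 up, with a median change of -0.46. Among all genes 28.8% were down and 14.6% up, with a median of -0.21, and shares of so few genes are near that background. Relative to the median of all genes, and after rescaling, 2 were down and 2 up. Hira, of the complex that places H3.3 in active genes, was at 9.59 FPKM in MB and 4.31 in MT (-0.997), and Dek, a chromatin protein that binds H3.3, at 49.3 and 24.5 (-0.98). Atrx, which with Daxx places H3.3 in heterochromatin, was at 9.64 and 20.1 (0.99), and Ubn2, a HIRA partner, at 3.15 and 5.41 (0.63). The rule for naming took the lowest and the highest 2 changes of each list, so that these examples are its ends.

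The machinery that exchanges H2A.Z had 6 of 13 genes down and 0 up, with a median of -0.50, beside the same 28.8% down and 14.6% up among all genes. Relative to the median of all genes 5 were down, in a background of 19.4%, and after rescaling 4 were down, in one of 16.7%. The largest falls were those of the ATPases Ruvbl2 (67.9 FPKM in MB and 18.5 in MT, -1.82) and Ruvbl1 (66.2 and 26.8, -1.28), which also work in other complexes. Ino80 (8.64 and 7.48, -0.18) and the SRCAP subunit gene Vps72 (25.8 and 23.5, -0.13) had the smallest differences. Of 7 measured partners of H2AX and macroH2A, 4 were down and 0 up, with a median of -0.91. On the centred scale 4 were down and 1 up, and on the rescaled one 3 down and 1 up. Ssrp1, a subunit of the FACT chaperone, was at 143 FPKM in MB and 52.9 in MT (-1.42), and Parp1, an enzyme that macroH2A1.1 binds, at 51.5 and 19.7 (-1.34). Trp53bp1 (11.8 and 11.2, -0.07) and Prkdc (4.29 and 6.21, 0.45), both of DNA break repair, stood at the other end of the list.

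Replication-coupled and general histone chaperones, which mostly handle the S-phase histones, had 8 of 9 genes down and 0 up, with a median of -2.01. The background was 28.8% of all genes down and 14.6% up. On the centred and rescaled scales 8 were again down, in backgrounds of 19.4% and 16.7%. Asf1b was at 111 FPKM in MB and 12.6 in MT (-3.04), and Chaf1b, a subunit of the CAF-1 complex of replication, at 37.2 and 4.54 (-2.79). Npm1 (431 and 185, -1.22) and Nap1l4 (61.5 and 41.5, -0.56) had the smallest falls, the latter below the fold.

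The knockdown comparison set the levels of these mRNAs in MT after siRNA against hnRNPL beside those after control siRNA. The target itself, Hnrnpl, had 95.1 FPKM with control siRNA and 85.9 with the siRNA against it, a change of -0.14 (-0.20 to -0.09). That change did not pass the fold, and the member H2afy, also at -0.14, had 24.0% of genes lower. Whether the 9 mRNAs depend on hnRNPL therefore cannot be told from these values. The study also examined hnRNPL protein on a western blot, which was not analysed here. None of the 9 variants passed the fold in either direction, in a background of 1.36% up and 0.864% down among 11233 genes. The members' median was 0.02, against -0.01 for all genes. After rescaling to an equal total as above, 1.27% of genes were up and 2.27% down, the members' median was -0.0773, H3f3b turned from 0.02 to -0.0773, and again 0 members passed.

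In all, 4 members had intervals that did not overlap between si-NC and si-hnRNPL, H2afj, H2afx, H3f3a and H1f0, while 33.8% of all genes did, so that their number is near that background. The change was 0.39 (0.17 to 0.61) for H2afj, with 96.1% of genes lower, and 0.33 (0.18 to 0.49) for H2afx, with 94.1% lower. It was 0.18 (0.15 to 0.22) for H3f3a and -0.17 (-0.22 to -0.13) for H1f0. The other 5 lay between -0.14 for H2afy and 0.10 for H2afz, with overlapping intervals. Changes in this comparison went with transcript length (Spearman's rho -0.45) and GC content (0.42) across 9929 coding genes, which are not independent replicates. H2afx, with 62.6% GC, was in decile 10 of GC content, whose median change was 0.12, and H2afj, with 54.5%, in decile 8, with a median of 0.06. H3f3a, with 43.2% GC, was in decile 2, with a median of -0.11. By length, counted from the shortest, H2afx, H2afj and H3f3a were in deciles 2, 3 and 5, with medians of 0.10, 0.06 and -0.008. H1f0 had no coding transcript in the annotation, so that neither its length nor its GC content was read. The part of length and GC content in the members' values was not tested.

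Among the partner lists, 0 of 8 H3.3 chaperones, 0 of 13 H2A.Z exchange genes and 0 of 7 H2AX and macroH2A partners passed the fold in the knockdown. Their medians were -0.05, -0.05 and -0.20, in a background of 1.36% of all genes up and 0.864% down. Dek (74.1 FPKM in the control and 55.0 after knockdown, -0.42) and Mdc1 (9.02 and 6.40, -0.44), the adaptor that binds phosphorylated H2AX, were the lowest of their lists. Of the other chaperones 1 of 9 was down, Chaf1b (9.03 and 5.11, -0.72), or 3 after rescaling, where 2.27% of all genes were down. The list's median was -0.26. Beside these, 2 of 6 proliferation markers were down (Mki67 -0.62, Top2a -0.60) and the summed level of the 6 was 381 FPKM in the control and 279 after knockdown, while 2 of 5 myotube markers were up (Ckm 0.71, Acta1 0.61). The part of these differences in the values of the lists was not tested. Replication-dependent histone genes had 5 of 24 up and 0 down, with a median of 0.48, at levels of few FPKM for most of them. Hist1h2bc, the highest, was at 36.3 FPKM in the control and 50.9 after knockdown.

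**Figure D5:**
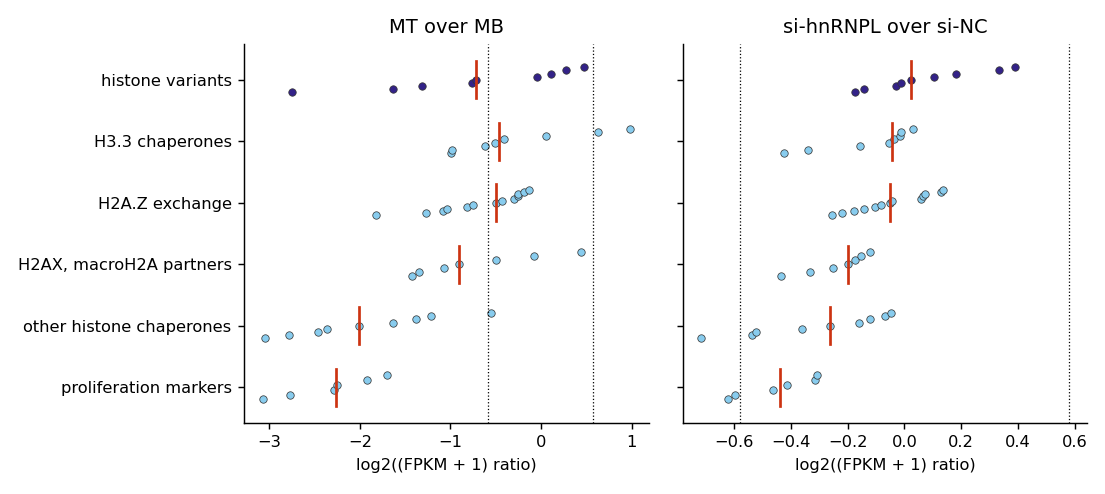
Change of each gene on the log2((FPKM + 1) ratio) scale for the 9 variants, the lists of chaperones and partners and the proliferation markers, MT over MB at left and si-hnRNPL over si-NC at right; red bars are list medians and dotted lines mark 0.58 in either direction. In MT over MB the medians were -0.71 for the variants, -0.46 for H3.3 chaperones, -0.50 for H2A.Z exchange, -0.91 for H2AX and macroH2A partners, -2.01 for the other chaperones and -2.27 for proliferation markers.

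H2afz and H1f0, which went opposite ways from MB to MT and were both higher in si-NC than in MT, were matched to other genes by the distance between their log2(FPKM + 1) values over the 4 libraries, each centred on its own mean, among 6568 named genes with a mean FPKM of at least 10. The 5 nearest to H2afz were Dazap1 (distance 0.0664), Marcksl1 (0.0775), Lrrc59 (0.104), Fbl (0.123) and Dtymk (0.144). Dazap1, the nearest, had 49.5 FPKM in MB, 16.4 in MT, 34.0 in si-NC and 36.9 in si-hnRNPL. The 5 nearest to H1f0 were Lama5 (0.0493), Kmt2e (0.0597), Stx16 (0.0912), Iqsec1 (0.106) and Arnt (0.109). Lama5 had 11.3 FPKM in MB, 15.3 in MT, 29.0 in si-NC and 26.1 in si-hnRNPL. Over 4 libraries of 2 kinds, the distance also counts what separates total from polyA RNA.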

How the data were processed

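The 4 libraries, 1 per condition, were rRNA-depleted total RNA of MB and of MT, and polyA RNA of MT with si-NC or si-hnRNPL. Reads shorter than 36 bp had been discarded and the rest mapped to mm9 with TopHat2, and the authors deposited FPKM values from Cufflinks, each with a 95% interval. The annotation behind the symbols is not given in the sources used here. Read counts are not part of the tables, so depth is unknown, and precision rests on the intervals, which are narrower in total RNA.

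Changes were log2((FPKM + 1) ratio) with intervals from the deposited ones combined in quadrature, called at 0.58, close to the study's 1.5-fold. Each call was set against all named genes with a mean FPKM of at least 1. No test was made. The fragments implied by an interval were (2 x FPKM / half-width) squared. Gene models and coding sequences came from GENCODE vM1 and promoters from RefSeq. Named genes were the members, the lowest and highest 2 changes of each partner list, the 5 genes nearest in pattern to H2afz and H1f0, Hnrnpl and, chosen after their values were seen, Hist1h1c, Hist1h2bc and the proliferation and myotube markers called. The members and lists were chosen with earlier results of these data known. Other pseudocounts, folds, filters and scalings were tried as alternatives. The calculation was tested on simulated data. Python 3.11.15, numpy 2.4.6 and pandas 2.3.3 were used. GRO-seq and CLIP-seq were not analysed here.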

Additional observations from a re-analysis of the deposited data

How the results depend on the processing

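Every difference rests on 1 library per condition, so culture, library and condition cannot be told apart, and intervals cover fragments only. No paired analysis was possible because each condition has a single library and no result comes from a test. For MT over MB, centring on the median of all genes gave 1 member up and 3 down (median -0.50), and rescaling gave 2 up and 3 down (median -0.40). A fold of 1 on the log2 scale gave 3 down. The share of all genes past that fold was not counted, so this count has no background. Pseudocounts of 0.1 and 0.01, the demand that intervals do not overlap and a mean FPKM of at least 10 changed the counts by less than 1.5 times, and the last of these kept 4 of the 5 falls. In the knockdown 0 members were called under each of these alternatives, and rescaling moved the median to -0.0773. Shares within gene pairs moved when FPKM was replaced by the fragments that the intervals imply, which depend on interval width as well as length. Implied fragments gave H3f3b 65.0%, 47.2%, 61.3% and 58.6% of H3.3 in MB, MT, si-NC and si-hnRNPL, and H2afz 90.1%, 72.9%, 62.6% and 66.4% of H2A.Z. They gave H2afy 81.8% in MB and 82.8% in MT, and a pseudocount of 1 gave it 87.0% in MB, 81.5% in MT and 84.1% in si-NC. In the polyA libraries an implied fragment is no read count. Without a filter on the background, an alternative chosen after seeing the data, 1934 of 24459 genes were up and 3381 down in MT over MB. In the knockdown that setting gave 172 up and 104 down of 24991. For the partner lists, centring and rescaling, likewise added later, each gave 1 H2AX and macroH2A partner up in MT over MB, and rescaling gave 3 of the other chaperones down in the knockdown. Rescaled, the H3.3 genes summed to 1233 in MB and 1457 in MT. Counting every entry with a repeated symbol, also added, gave the variants 18.5% of H3 FPKM in MB and 48.9% in MT. It gave them 18.0% of H2A FPKM in MB and 26.2% in MT, against 20.3% and 30.4% with each symbol counted once.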

Other observations

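Some variant genes outside the 9 were also looked up, from a fixed list that does not hold every known variant. Of 6 further variant genes looked up, 5 were found, and Cenpa and H1fx were the only ones with a mean FPKM of at least 1 in either comparison. Cenpa, which encodes the H3 variant of centromeres and is loaded after mitosis, had 65.3 FPKM in MB (63.7 to 66.9) and 8.59 in MT (7.99 to 9.20), a change of -2.79, close to that of H2afx. The linker histone gene H1fx had 3.88 FPKM in MB (3.42 to 4.33) and 1.35 in MT (1.09 to 1.61), a change of -1.05. In polyA RNA Cenpa was at 31.8 FPKM in the control and 30.0 after knockdown, and H1fx at 5.10 and 5.26, each with overlapping intervals. H1fx therefore went down while H1f0 had 53.0 FPKM in MB and 74.1 in MT.

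The total RNA tables also list transcript units assembled from the reads. Inside H2afy lay 3 of them, at chr13:56193543-56193783, chr13:56194244-56194517 and chr13:56196219-56196746 of mm9. Their FPKM was 5.49, 3.56 and 4.32 in MB and 4.55, 4.60 and 3.98 in MT, with overlapping intervals for each, while H2afy itself had 54.6 in MB and 21.4 in MT. H2afz and H3f3a each had 1 unit within 2 kb outside the gene, at 0.127 and 0.252 FPKM in MB and 0.254 and 0.924 in MT, and the other members had 0. Whether the units inside H2afy are introns of it or RNAs of their own was not tested.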
